A study of Mus musculus with 16 samples.

Results

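Monoubiquitylated histone H2B (H2Bub1) was mapped by chromatin immunoprecipitation and sequencing in mouse embryonic fibroblasts (MEFs) with and without Atxn7l3, and the resulting peaks are described here across protein-coding genes. All autosomal broad peaks of the wild-type list (WT, Atxn7l3+/+, 19578 peaks) and of the knockout list (KO, Atxn7l3-/-, 28097 peaks) were used. Together they make up 47675 of the 245651 peaks in the 8 lists of the series. They were placed on the 20807 autosomal genes among the 21951 protein-coding genes of GENCODE M21. WT and KO MEFs came from E10.5 embryos of heterozygous parents, with the strain labelled DBA/2 x C57BL/6, after removal of the head and the gastrointestinal tract, and received no treatment beyond growth in DMEM with foetal calf serum. The knockout is a germline null, and the study calls the KO cells MEF-like and describes many of them as round. There was 1 library per genotype, so no difference below has a replicate check, no p-value is given, and genotype and library cannot be told apart.

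Ubiquitin is placed on H2B by the RNF20/RNF40 ligase with its conjugating enzyme, while RNA polymerase II (Pol II) moves along a gene, so the mark lies over transcribed gene bodies. It is removed by the proteases USP22, USP27X and USP51, each of which needs the adaptors ATXN7L3 and ENY2. USP22 works in this way inside the SAGA co-activator complex. The question of the comparison is therefore which genes, and which parts of them, carry the mark in MEFs when the shared adaptor is missing.

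The share of a gene body that lies inside H2Bub1 peaks is called its covered share. A gene gained the mark when this share was at least 10 percentage points higher in KO than in WT, lost it when the share was at least 10 points lower, and kept it when a gene with a WT peak moved by less. The width of a peak depends on the reads behind a library, which are unknown, and on the threshold of the caller. Intervals beside percentages are exact Clopper-Pearson 95% intervals, and cover no error other than that of counting within these lists.

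At genes with peaks in both lists, KO peaks mostly began upstream of the transcription start site (TSS) and WT peaks inside the gene, while at genes with a peak in KO only 39.4% began upstream. The stretch from 250 bp before to 50 bp after the TSS is therefore shown for 4 genes described below, as given by RefSeq for GRCm38.p6, 5′ to 3′ on the strand of the gene and with CG dinucleotides in capitals. All 4 genes looked up had an entry. Ywhae, a 14-3-3 adaptor gene that kept its coverage, is shown from chr11:75732637-75732936 (plus strand). Ube2b, the gene of an H2B ubiquitin-conjugating enzyme with a partial WT peak, is shown from chr11:52000737-52001036 (minus strand). Tgfb1, a growth factor gene covered in KO only, is shown from chr7:25686752-25687051 (plus strand), and Tmem108, a long gene covered in KO only, from chr9:103761788-103762087 (minus strand).
Ywhae: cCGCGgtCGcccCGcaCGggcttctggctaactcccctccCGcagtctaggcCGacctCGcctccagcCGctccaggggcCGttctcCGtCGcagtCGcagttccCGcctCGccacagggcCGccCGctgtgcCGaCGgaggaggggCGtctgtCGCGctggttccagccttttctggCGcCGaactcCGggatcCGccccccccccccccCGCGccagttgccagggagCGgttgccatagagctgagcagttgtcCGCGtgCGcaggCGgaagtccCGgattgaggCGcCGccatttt
Ube2b: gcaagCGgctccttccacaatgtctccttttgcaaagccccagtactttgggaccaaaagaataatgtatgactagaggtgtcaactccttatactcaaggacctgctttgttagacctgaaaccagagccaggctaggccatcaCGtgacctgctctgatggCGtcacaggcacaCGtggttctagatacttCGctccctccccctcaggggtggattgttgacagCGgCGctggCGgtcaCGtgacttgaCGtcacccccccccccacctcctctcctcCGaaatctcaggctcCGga
Tgfb1: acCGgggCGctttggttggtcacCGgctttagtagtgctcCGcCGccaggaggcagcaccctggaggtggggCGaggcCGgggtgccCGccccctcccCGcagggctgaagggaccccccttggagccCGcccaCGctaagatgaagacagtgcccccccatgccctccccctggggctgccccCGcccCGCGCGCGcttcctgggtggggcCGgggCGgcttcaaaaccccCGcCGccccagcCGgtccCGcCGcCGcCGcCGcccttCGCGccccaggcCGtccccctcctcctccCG
Tmem108: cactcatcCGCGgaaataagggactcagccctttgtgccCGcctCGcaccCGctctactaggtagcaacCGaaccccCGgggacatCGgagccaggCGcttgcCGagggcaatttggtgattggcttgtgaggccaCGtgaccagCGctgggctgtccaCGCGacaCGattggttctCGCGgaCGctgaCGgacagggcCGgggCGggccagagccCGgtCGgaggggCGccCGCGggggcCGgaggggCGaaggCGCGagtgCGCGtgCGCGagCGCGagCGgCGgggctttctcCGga
In these 300-base windows Ywhae has 36 CG dinucleotides, Ube2b 12, Tgfb1 30 and Tmem108 39. Of the windows placed in this way at the GENCODE TSS of all 20807 genes, WT peaks touched 5.22% and KO peaks 39.5%. No base of any of the 4 windows lay inside a WT peak. KO peaks covered 300 bases of the Ywhae, Ube2b and Tgfb1 windows and 95 bases of the Tmem108 window.

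The gene deleted in the KO cells comes first. Atxn7l3 (ENSMUSG00000059995, chr11:102289300-102296631, minus strand) had 1 WT peak of 1615 bp with a fold enrichment of 2.88, from 102294378 to 102295992. In KO MEFs it had a peak of 3477 bp over the promoter end, from 102294532 to 102298008, with a fold of 5.47, and a peak of 6924 bp over the 3′ end, from 102285067 to 102291990, with a fold of 3.36. The stretch between both KO peaks was free of peaks. The covered share of the annotated gene was 22.0% in WT and 65.3% in KO. The knockout allele lacks several exons, so part of the gene body used for the KO share does not exist in these cells.

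The libraries also differed in other ways. Of 4 Y-linked genes, 4 had a Pol II promoter peak in the WT MEF library and 0 in the KO MEF library, and the description is therefore kept to autosomes. Of 17 fibroblast and mesenchymal markers, 14 had a Pol II promoter peak (within 1000 bp of the TSS) in WT and 13 in KO, and their summed Pol II promoter fold was 277 in WT and 173 in KO. The summed covered share of these 17 genes was 239% in WT and 822% in KO. The fibroblast genes Dpt, Fap, Meox1 and Meox2 had no H2Bub1 in either list.

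Markers of another cell layer moved with the genotype. Of 20 epithelial and mesothelial markers, 0 had a Pol II promoter peak in WT and 6 had one in KO, with a summed Pol II fold of 115 in KO. The same 6 genes were the only ones of this list with H2Bub1, and only in KO: Upk3b with 100%, Msln with 92.1%, Crb2 with 87.7%, Wt1 with 79.1%, Upk1b with 58.3% and Krt7 with 33.1% of the gene body. The epithelial genes Cdh1, Epcam, Krt8, Krt18 and Krt19 were at 0 in both lists. These genes were named after their values had been seen, as were the fibroblast genes above. The summed covered share was higher in KO for each of the other marker lists too, at 13.4 and 242% for 14 blood cell markers, 11.6 and 148% for 14 pluripotency markers, 7.42 and 71.0% for 15 endothelial markers, 4.81 and 31.2% for 15 neural markers and 9.13 and 27.2% for 14 muscle markers. Some sums rest largely on 1 gene, with Fli1 at 69.4% in KO among endothelial markers and Nes at 31.2% among neural ones. Tubb3, a neural marker, went from 4.81% to 0. The summed Pol II promoter fold was higher in KO for blood cell (43.6 and 66.4) and pluripotency markers (26.8 and 37.2). It was lower in KO for endothelial (28.6 and 13.4), neural (25.8 and 7.12) and muscle markers (4.28 and 4.18). How far cells of these kinds contribute to the gains described below was not tested.

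Covered genes were widespread in KO MEFs. Of the 20807 genes, 9616 gained H2Bub1, which is 46.2% of all genes tested, and 24 lost it (0.115%). A loss of 10 points was possible only at the 3973 genes with at least 10% covered in WT. A peak in KO only was found at 4764 genes (22.9%), against 61 genes with a peak in WT only. Among the 6525 genes with a peak in both lists, 5979 gained, 537 kept and 9 lost coverage, and the KO share was the higher one in 98.6% of them. The remaining 9457 genes had no H2Bub1 peak in MEFs.

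WT coverage was nearly always retained. Of the bases in WT peaks, 97.0% also lay in KO peaks, and at 79.6% of the genes with a WT peak every covered WT base was also covered in KO. Conversely, 21.2% of the KO bases lay in WT peaks. Peaks over 20 kb wide held 8.41% of the covered bases in WT and 52.1% in KO, with 149 such peaks in WT and 2830 in KO. Of the covered bases, 97.9% in WT and 95.3% in KO were inside protein-coding gene bodies, so new coverage in KO MEFs lay largely within genes.

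**Figure D1:**
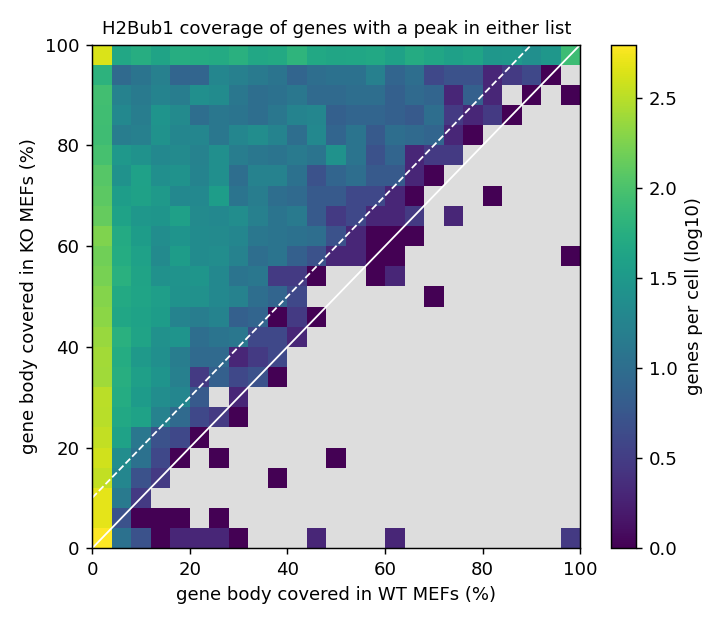
Covered share of the gene body in WT (x axis, %) and KO (y axis, %) for the 11350 genes with a peak in either list. Colour gives the number of genes per cell on a log10 scale, the solid line marks equal shares and the dashed line a gain of 10 points. Nearly all genes lie above the solid line, with a column of genes at 0% in WT and a row of genes at 100% in KO.

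The KO share was higher at genes with a higher WT share, which it largely contains. The median KO share was 40.4% for genes with a WT share of up to 10%, 62.8% for those between 10 and 25%, 79.6% for those between 25 and 50% and 93.6% for those between 50 and 75%. The median gain did not follow this order, at 35.8, 45.9, 43.4 and 30.4 points in these classes. Genes with a peak in KO only had a median share of 28.5% and a median covered length of 3.98 kb. A share of at least 90% was reached by 128 genes in WT and by 1983 genes in KO. The coverage ceiling leaves no room for a gain at the 128 genes, of which 123 kept and 5 lost coverage.

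At genes that kept their coverage the fold enrichment still differed. Among 123 genes covered by at least 90% in both lists, the fold had a median of 3.48 (WT) and 4.96 (KO), with the KO value above the WT value at 116 of them. The 3 longest were Ywhae, which had 98.7% covered in WT and 99.4% in KO, Crkl, a signalling adaptor gene, with 93.0 and 100%, and Ythdf2, which encodes a reader of methylated RNA, with 92.5 and 100%. Their folds were 4.75 in WT and 8.20 in KO for Ywhae, 3.62 and 6.04 for Crkl, and 3.78 and 6.33 for Ythdf2. The background behind the fold is not given and may differ between the lists, so these pairs of values set no level between libraries. Genes with a peak in both lists that kept coverage were of unlike kinds. Of these 537, 258 had less than 10% covered in WT, with a median length of 98.1 kb, and 123 had at least 90% covered, with a median length of 3.29 kb.

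Losses were few. Of the 24 genes with a loss, 11 carry a Gm number as their name, and Gm10722, Gm10801 and Gm21738 went from 100% in WT to 0% in KO. Their WT peaks had a fold of 2.41, 2.49 and 2.15. Among named genes, Irf7, an interferon regulatory factor gene that overlaps a neighbour, had 45.0% covered in WT and 0% in KO. Insig1, a brake of cholesterol synthesis, went from 71.1 to 48.5%, and Tbx15, a mesenchymal transcription factor gene named after its value was seen, from 22.4 to 1.94%. Tbx15 had a Pol II promoter peak in WT only.

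Genes with and without H2Bub1 differed in promoter Pol II. Promoter Pol II was present in both MEF lists at 10576 genes, of which 94.0% had an H2Bub1 peak in KO and 82.4% gained. Of the 8996 genes without one in either list, 10.1% had an H2Bub1 peak in KO and 6.66% gained (interval 6.15 to 7.19). At 314 genes promoter Pol II was present in KO only, and of these 72.0% had H2Bub1 in KO and 6.37% in WT. Of 921 genes with promoter Pol II in WT only, 23.6% had H2Bub1 in KO and 11.9% in WT.

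Gains were more frequent at genes with a higher Pol II fold in WT, up to a plateau. When all genes with promoter Pol II in WT were split into 5 equal groups by fold, 46.8% of the lowest group gained, then 77.7, 86.4, 88.0 and 86.5% of the higher groups. Promoter Pol II in KO as well was present at 66.6% of the lowest group and at 95.8 to 99.5% of the others. The lowest group had a fold of up to 7.54 and the highest began at 19.8. Covered bases in KO were 11.7 times those in WT in the lowest group and 3.02 times in the highest. WT coverage ran from 1.19 to 16.2% of the bases across these groups and KO coverage from 13.9 to 48.9%.

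Some genes with Pol II stayed without the mark. There were 624 genes with promoter Pol II in both lists and no H2Bub1 in either. Among the longest were Dlg2, which encodes a synaptic scaffold, and Ctnna3, an alpha-catenin gene that overlaps a neighbour, each over 1 Mb long with 0% covered in WT and KO. Their Pol II promoter folds were 22.1 in WT and 10.4 in KO for Dlg2, and 2.92 and 4.02 for Ctnna3. Other promoters within these genes were not examined.

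Gains differed with gene length in both number and extent. The percentage of genes with a gain was 29.8% (28.4 to 31.3) under 5 kb, 38.8% from 5 to 10 kb, 52.8% from 10 to 25 kb, 56.3% (54.7 to 58.0) from 25 to 50 kb, 55.1% from 50 to 100 kb, 52.2% from 100 to 200 kb and 33.1% (30.1 to 36.1) at 200 kb and over. The percentage with Pol II was low in short genes too: 34.5% of genes under 5 kb had promoter Pol II in both lists, against 62.0% of genes from 50 to 100 kb. Among genes with Pol II in both lists the gain was 78.9% under 5 kb, 88.3% from 5 to 10 kb, and then lower with each class down to 60.2% (55.4 to 64.9) at 200 kb and over. Among genes with no other gene within 5000 bp the gain was lower in short genes, at 11.7% of 1805 genes under 5 kb, 19.4% from 5 to 10 kb, 39.3% from 10 to 25 kb and 46.5% from 25 to 50 kb, and the highest value was then 51.6% from 50 to 100 kb.

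**Figure D2:**
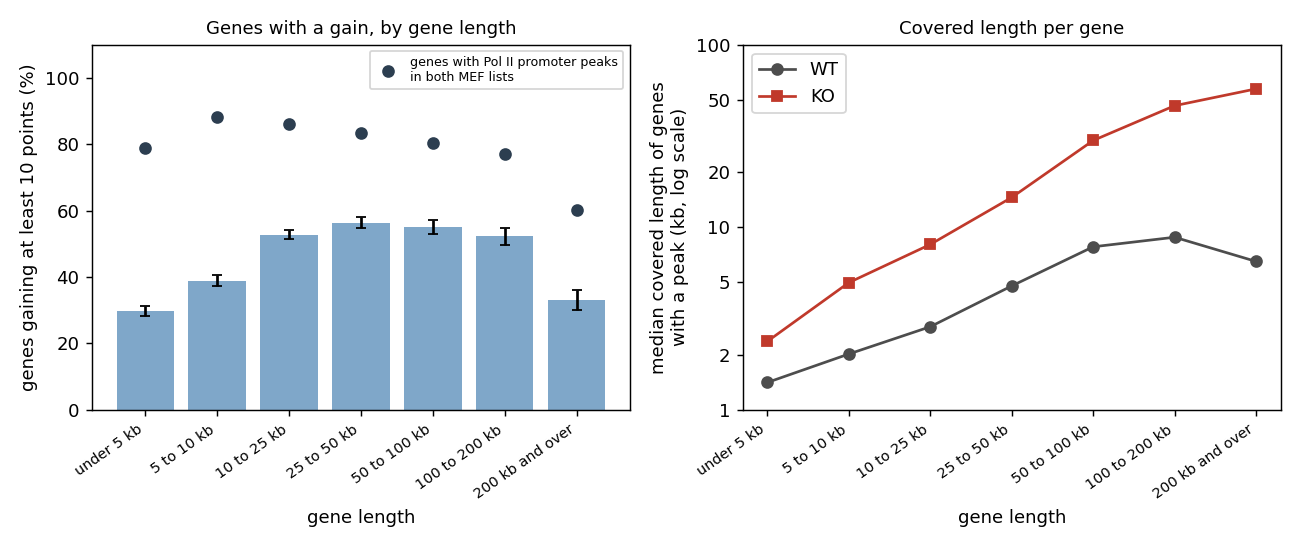
Left, percentage of genes gaining at least 10 points by gene length (bars, with 95% counting intervals), and the same for genes with promoter Pol II in both MEF lists (points). Right, median covered length of genes with a peak in WT and KO on a log scale. KO medians climb from 2.37 kb to 57.3 kb, whereas WT medians stay below 9 kb in every class.

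Among genes with a KO peak, those of 200 kb and over had the largest median covered length in KO. Their median covered share in KO, 17.2%, was the smallest of the classes. The median covered length of a gene with a peak was 1.41 kb in WT and 2.37 kb in KO under 5 kb, 4.77 and 14.6 kb from 25 to 50 kb, and 6.50 and 57.3 kb at 200 kb and over. Covered bases in KO were 3.57 to 4.31 times those in WT in each class up to 100 kb, 5.35 times from 100 to 200 kb and 7.52 times at 200 kb and over. With peaks of a -log10 q of at least 3 these ratios were 9.67 to 19.7 up to 100 kb, 33.3 from 100 to 200 kb and 96.2 at 200 kb and over. The fold went the other way: among genes with peaks in both lists the KO fold was the higher one in 91.2% of genes under 5 kb, in 63.8% from 100 to 200 kb and in 36.4% (31.2 to 42.0) at 200 kb and over. In the longest class the median fold was 3.08 in WT and 2.87 in KO. Each fold is averaged over the bases that its own list covers. WT and KO folds thus come from unlike stretches of a gene and give no change in level.

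The largest gains of each class, taken among genes that overlap no other gene, are given as single loci, and since they were picked for the size of the gain they do not represent their class. Many genes tied at 0% in WT and 100% in KO, with 140 under 5 kb, 42 from 5 to 10 kb, 10 from 10 to 25 kb and 4 from 25 to 50 kb, and among ties the genes with most covered bases are named. Under 5 kb these were Avpr1a, the gene of a vasopressin receptor, and Hyal2, which encodes a hyaluronidase, both at 0% in WT and 100% in KO. From 5 to 25 kb, Sbds, a ribosome maturation factor gene, Cyp2d22, a cytochrome P450 gene, Foxo6, a forkhead factor gene, and Pard6b, a cell polarity gene, likewise went from 0 to 100%. From 25 to 50 kb, Gata6, which encodes a zinc finger transcription factor, and Resf1 did the same. Avpr1a, Cyp2d22 and Foxo6 had promoter Pol II in KO only.

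Above 50 kb none of the genes that overlap no other gene went from 0 to 100%, and the genes picked in this way were covered by at least 92.1% in KO. Mdfic, an inhibitor of MyoD-type factors, had 2.58% covered in WT and 98.5% in KO, and Pkig, a protein kinase A inhibitor gene, 0 and 95.8%. Shb, an SH2 adaptor gene, had 0.547 and 96.7%, and Tspan9, a tetraspanin gene, 0 and 92.7%. Among the longest genes, Efna5 (chr17:62604184-62881317), the gene of an ephrin ligand, had 19.8 kb covered by 20 peaks in WT and 266 kb covered by 4 peaks in KO. Scattered WT peaks were thus joined in KO at Efna5, whereas Tmem108 (chr9:103482947-103761837) had no WT peak and 257 kb in 11 KO peaks. Rcan2, a calcineurin regulator gene, and Plxna4, a semaphorin receptor gene, were picked for the most covered bases among genes with a peak in KO only, and had 201 and 296 kb in KO and 0 in WT.

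Genes displayed by the study had less extreme values. Klhl11, a kelch-family gene, had 68.6% covered in WT and 100% in KO, and Zpr1, a zinc finger protein gene, 10.4 and 49.2%. The covered share was 13.7 and 36.8% for Bud13, a splicing-related gene, and 62.6 and 81.3% for Cmip. Acly, the gene of the enzyme that supplies cytosolic acetyl-CoA, had 4.47 and 9.03% and did not reach the gain threshold.

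H2Bub1 was densest at the 5′ end in both lists and reached the 3′ end more often in KO. Among genes with a peak, divided into 3 equal parts, the 5′ part of the gene body held one in 86.9% of genes in WT and 95.3% in KO, the middle part in 61.9 and 76.7%, and the 3′ part in 38.7% (37.6 to 39.9) and 59.9% (59.0 to 60.8). The mean covered share of the 5′, middle and 3′ parts was 35.2, 22.6 and 10.8% in WT and 73.4, 51.2 and 31.5% in KO. Both lists had this order of parts over all genes, but in WT genes under 5 kb the middle part was above the 5′ part, with a mean of 63.9 against 55.5%. At the 6525 genes with a peak in both lists, the covered bases in KO were 3.04, 4.24 and 5.23 times those in WT in the 5′, middle and 3′ parts.

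The 5′ part held more of the new bases than either other part. Of the bases covered in KO but not in WT, 48.6% were in the 5′ part, 32.9% in the middle and 18.5% in the 3′ part of genes with a KO peak, against 58.7, 28.8 and 12.6% of the WT bases. At the 4764 genes with a peak in KO only, 61.7% of the new bases were in the 5′ part and 12.5% in the 3′ part, and 40.2% of these genes had any peak in the 3′ part. At the 6525 genes with a peak in both lists the shares were 44.7 and 20.3%, and 74.3% had a KO peak in the 3′ part.

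**Figure D3:**
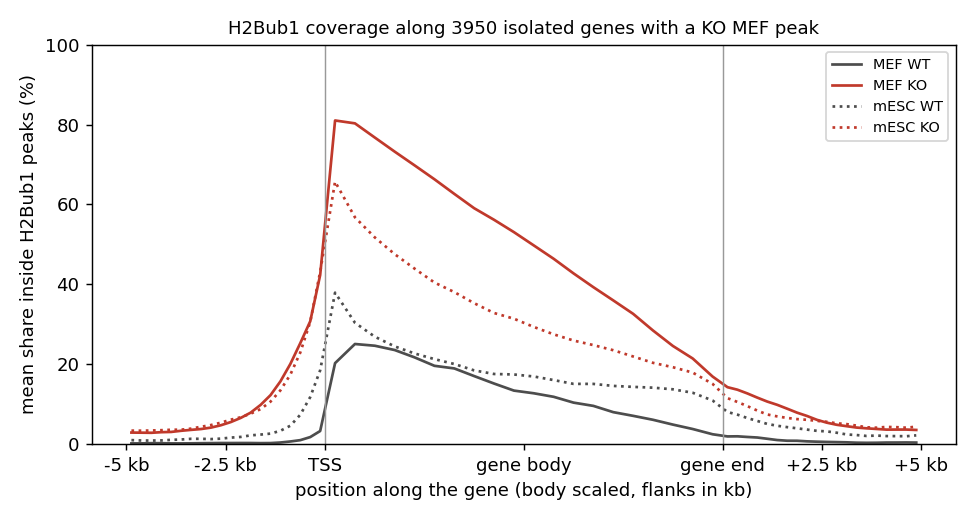
Mean share of bases inside H2Bub1 peaks (y axis, %) along the 3950 genes with a KO MEF peak and no other protein-coding gene within 5000 bp, with the gene body scaled and flanks in kb. Solid lines are MEFs and dotted lines mESCs, grey for WT and red for KO. The genes were chosen for a KO MEF peak, which favours the KO MEF line, and both MEF lines fall towards the gene end.

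Where both lists had a peak, the edges of the marked domain lay further out in KO at both ends. At 2429 genes with peaks in both lists and no other gene within 5000 bp, the 5′ edge of the first peak lay at a median of 881 bp downstream of the TSS in WT and 125 bp upstream in KO. It lay upstream of the TSS in 8.81% of these genes in WT and in 72.6% in KO. A peak ran past the annotated gene end in 3.29% of the genes in WT and 18.6% in KO, and where it did, the overhang had a median of 729 bp (WT) or 1566 bp (KO). At 1521 such genes with a peak in KO only, the 5′ edge had a median of 57 bp downstream of the TSS, 39.4% began upstream of it and 7.56% ran past the gene end. The 3′ edge also differed with gene length. Among all such genes with a peak in the list, peaks passed the gene end at 29.5% of genes under 5 kb in WT and 68.2% in KO, and at 0.966 and 1.23% of genes of 200 kb and over.

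Coverage of exons and introns was higher at the start of the gene than at its end. In 10393 genes chosen for a KO peak and at least 3 exons in their longest coding transcript, the first exon had 16.9% of its bases covered in WT and 81.9% in KO, and the first intron 18.9 and 64.8%. Internal exons had 8.31 and 31.2%, internal introns 4.86 and 28.6%. The last intron had 2.69 and 19.7%, and the last exon 2.88 and 17.8%. In KO these values fell in gene order, whereas in WT the first intron was above the first exon and the last exon above the last intron. Since a KO peak chose the genes, the WT and KO values of a feature are a description and give no size of the change. Single-exon genes, of which there were 1236, gained in 20.2% of cases, and genes with 10 to 19 exons in 59.1%.

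In very long genes the mark decayed with distance from the TSS in both lists. At 522 genes of 200 kb and over with a KO peak, the base 1 kb downstream of the TSS lay in a peak at 11.7% of genes in WT and 75.1% in KO. At 10 kb the shares were 10.2 and 56.1%, at 50 kb 7.28 and 41.4%, at 100 kb 3.45 and 29.5%, and at 175 kb 2.87 and 19.7% (16.4 to 23.4). At the TSS itself they were 4.79 and 52.7%. The genes were chosen for a KO peak, so the distance of the KO values from the WT values is no measure of the change.

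**Figure D4:**
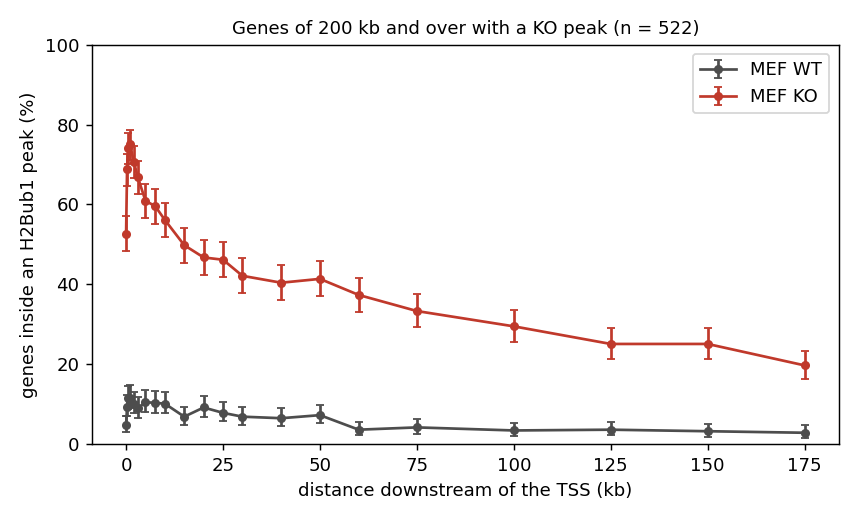
Percentage of the 522 genes of 200 kb and over with a KO peak whose base at a given distance from the TSS (x axis, kb) lies inside an H2Bub1 peak, in WT and KO MEFs, with 95% counting intervals. KO declines from 75.1% at 1 kb to 19.7% at 175 kb, and WT stays at or below 11.7% throughout.

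Promoter sequence differed between genes with and without the mark. Over all 20807 genes the 300-base promoter window held a median of 12 CG dinucleotides, with 4 at genes without H2Bub1, 17 at genes with a peak in KO only and 22 at genes that had a peak in both lists and gained. Genes with a peak in both lists that kept coverage had 21. Of windows with 0 to 4 CG, 12.3% belonged to genes with a gain, and of windows with 30 or more, 74.1%. Pol II shared this order, with promoter peaks in both lists at 8.17 and 84.7% of the genes. Within genes with Pol II in both lists the gain was 68.1% (63.9 to 72.1) at 0 to 4 CG and 85.8% (84.4 to 87.2) at 30 or more.

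Letter motifs of promoters were counted in the same windows on both strands. TATAAA occurred in 12.7% of all windows, in 19.6% of those at genes without H2Bub1, in 7.26% at genes with a peak in KO only, in 6.39% at genes with peaks in both lists that gained and in 10.4% at those that kept coverage. GGGCGG occurred in 43.7% of all windows and in 23.1, 57.2, 64.3 and 57.7% of these classes. CCAAT varied less, between 35.4 and 39.4% of these 4 classes, with 38.6% of all windows. GGGCGG contains a CG and so follows their number. Along gene bodies the bases covered in both lists had 45.8% G and C and 14.0 CG per kb, those covered in KO only 44.5% and 12.6, and uncovered bases of the same genes 43.2% and 9.95.

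The genes that write, erase and read H2Bub1 were themselves marked. Of 6 genes of the deubiquitylase modules, 6 had a peak in both lists and 5 gained. Atxn7l1, a paralogue of the SAGA subunit gene Atxn7, had 2.94% covered in WT and 80.1% in KO. Eny2, the second adaptor gene, which overlaps a neighbour, had 14.0 and 68.2%, and Usp22, the catalytic subunit gene, 36.8 and 46.7%, just below the gain threshold. Of 12 genes of the H2B ligase, the PAF elongation complex and the FACT histone chaperone, 11 gained, with Ube2b at 18.7 and 100% and Wac, a ligase partner gene, at 21.1 and 83.1%. Supt16, a FACT subunit gene that overlaps a neighbour, kept 35.8 and 42.8%.

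Readers and neighbouring chromatin pathways had shares of a similar size. Of 13 genes of the COMPASS and DOT1L histone methyltransferases, whose activity depends on H2Bub1 in other systems, 13 gained, among them Men1, a COMPASS subunit gene, with 0 and 100%, and Setd1b, a catalytic subunit gene, with 10.4 and 67.3%. Wdr5, the core subunit gene, had the smallest change, from 11.3 to 29.2%. Of 26 Polycomb genes, 23 gained, with Cbx7 at 0 and 3.14%. Of 28 genes for Pol II elongation and termination factors 26 gained, and Pcf11, a termination factor gene, had 14.4 and 93.1%.

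These shares were set against 46.2% for all genes and 82.4% for genes with Pol II in both lists, since most members of such lists had promoter Pol II. Across 59 lists and families 40 had a higher share with a gain than all genes. No list is set apart here from other genes with Pol II.

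**Figure D5:**
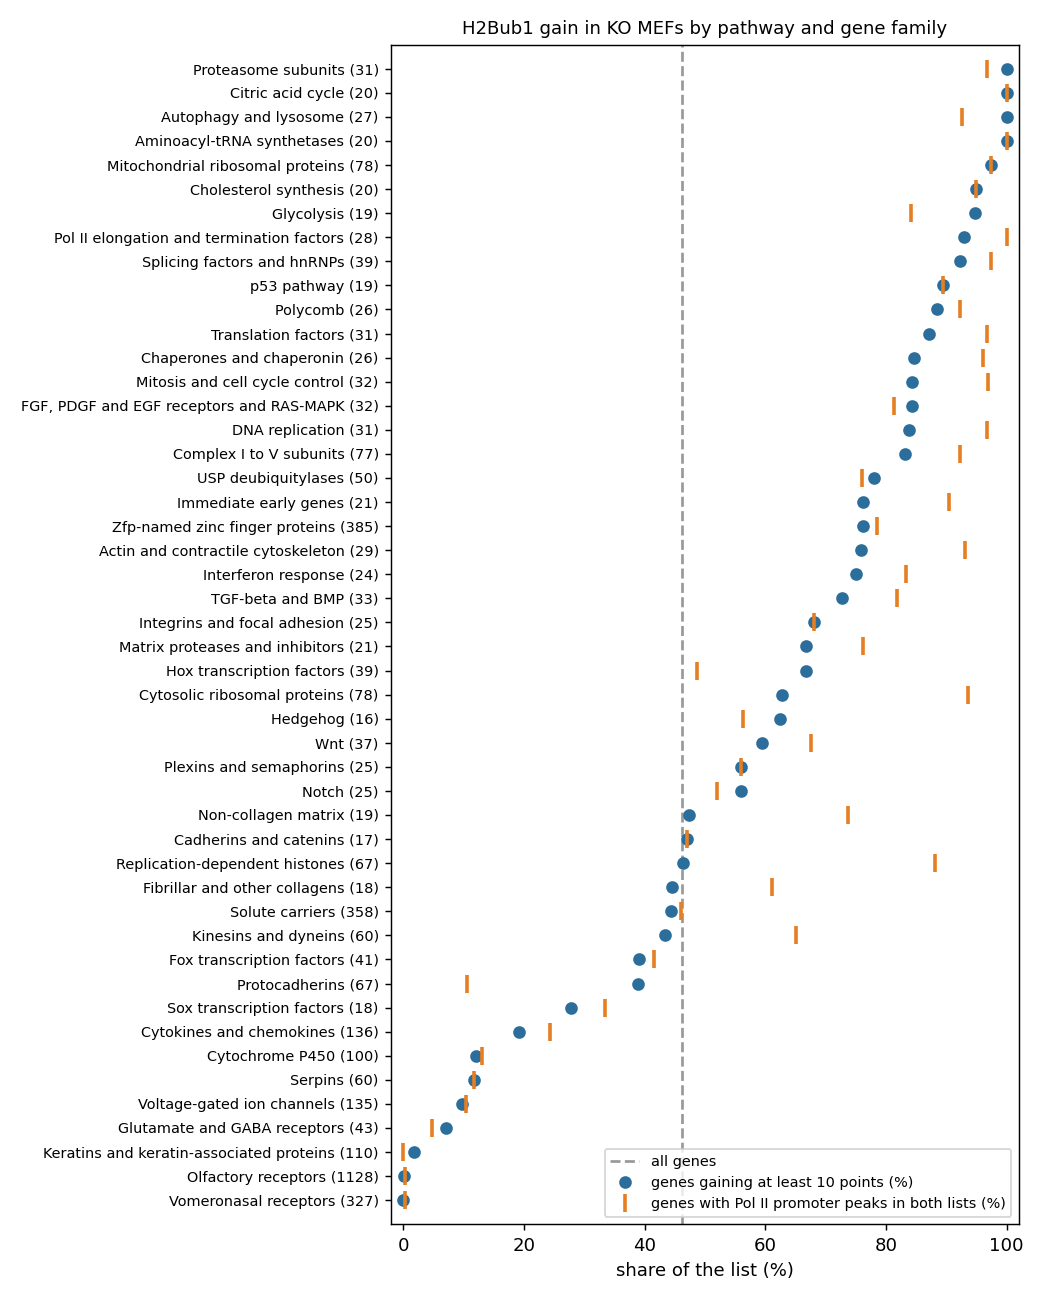
Share of each list of at least 15 genes that gained H2Bub1 in KO MEFs (circles, %) and share with Pol II promoter peaks in both MEF lists (ticks, %). The number of genes is given in brackets, the dashed line marks all genes (46.2%), and 48 lists are shown. Circles lie near the ticks for most lists, and well to the left of them for replication-dependent histones, cytosolic ribosomal proteins, non-collagen matrix genes and kinesins and dyneins. They lie to the right for protocadherins (38.8 against 10.4%) and Hox genes (66.7 against 48.7%). Marker lists are not shown.

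Families of genes for protein production differed in their WT coverage. Of 78 cytosolic ribosomal protein genes, which are short and highly transcribed, 75 had a WT peak, 49 gained and 26 kept coverage, and the median covered share was 76.8% in WT and 100% in KO. Rps27l had 17.8 and 100%, and Rpl21 22.2 and 98.9%. The KO fold was the higher one at 72 of 75. In contrast 37 of 78 mitochondrial ribosomal protein genes had a WT peak, 76 gained, and the median went from 0 to 69.1%, with Mrps14 at 0 and 100%. Both families had Pol II in both lists at over 90% of members, with 93.6% for the cytosolic and 97.4% for the mitochondrial genes.

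Other genes of RNA and protein handling gained in nearly every case. Of 39 splicing factor and hnRNP genes 36 gained, and the median share went from 44.2 to 89.8%. Hnrnpa1, an RNA-binding protein gene, had 18.1 and 100%, and Srsf5, a splicing factor gene, kept 96.9 and 100%. Translation factor genes gained in 27 of 31 cases, with Eef1g at 33.3 and 100%, and aminoacyl-tRNA synthetase genes in 20 of 20, with Qars at 10.9 and 75.5%. All 31 proteasome subunit genes gained, from Psmb5, a catalytic subunit gene, at 0 and 100% to Psmc5, an ATPase subunit gene, at 88.1 and 100%. Chaperone genes gained in 22 of 26 cases, and Hsp90ab1, a cytosolic chaperone gene, was fully covered in both lists. The chaperone gene Calr lost coverage, from 98.2 to 88.1%.

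Metabolic lists ran from 8 of 12 genes with a gain to all members. Of 20 citric acid cycle genes 20 gained, with Sdhc, a succinate dehydrogenase gene, at 0 and 58.8% and Mdh2, a malate dehydrogenase gene, at 44.8 and 63.6%. Of 19 gene records for glycolysis, with 1 symbol present in duplicate, 18 gained, with Eno1, an enolase gene, at 24.0 and 89.2%, and Aldoc, an aldolase gene, was at 0 in both. Respiratory chain genes gained in 64 of 77 cases. Cholesterol synthesis genes gained in 19 of 20 cases with a median from 5.06 to 35.3%, and Insig1 was the exception. Fatty acid synthesis genes gained in 8 of 12 cases, with Scd2, a desaturase gene, at 41.2 and 100% and Acacb, an acetyl-CoA carboxylase gene, at 0 in both. All 27 genes of autophagy and lysosome gained, with Tfeb, their transcription factor gene, at 1.79 and 91.0%.

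Proliferation and stress lists differed in how many genes had a WT peak, against 31.7% of all genes. Of 31 DNA replication genes 14 had a peak in WT, 30 in KO, and 26 gained, with the median going from 0 to 21.2%. Pcna, the sliding clamp gene, had 0 and 100%, and Prim1, a primase gene with promoter Pol II in both lists, had 0 in both. Of 32 mitosis and cell cycle genes 17 had a WT peak and 27 gained, with Cdkn1b, a cyclin-dependent kinase inhibitor gene, at 13.0 and 100%. In the p53 pathway 15 of 19 had a WT peak and 17 gained, with Pmaip1, a pro-apoptotic gene, at 0 and 100%. Of 21 immediate early genes 16 had a WT peak and 16 gained, and their median share was 55.3% in WT and 100% in KO, with Klf4 at 11.6 and 100% and Jund at 96.9 and 100%.

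Signalling pathways divided into members with and without H2Bub1. Receptor tyrosine kinase and RAS-MAPK genes gained in 27 of 32 cases, with Dusp4, a MAP kinase phosphatase gene, and Nras at 0 and 100%, while the receptor genes Kit and Erbb3 had no peak. TGF-beta and BMP genes gained in 24 of 33 cases, with the ligand gene Tgfb1 at 0 and 100%, the inhibitory Smad6 at 8.97 and 100% and the ligand gene Bmp2 at 0 in both. Wnt genes gained in 22 of 37 cases, Hedgehog genes in 10 of 16 and Notch genes in 14 of 25. The receptor gene Fzd4 had 0 and 85.7%, Disp1, needed for Hedgehog release, 2.51 and 86.1%, and the Notch target Hes1 0 and 100%. The ligand genes Dkk1, Wnt7b, Shh, Dhh, Dll1 and Jag2 had no H2Bub1 in either list, of which Dkk1 encodes an antagonist.

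Matrix lists lay near the percentage of all genes or above it. Of 18 collagen genes 8 gained, 4 kept coverage and 5 had no peak, and 61.1% had Pol II in both lists. Col4a1 and Col4a2, the basement membrane collagen genes that overlap at their shared promoter, had 4.59 and 58.5%, and 0.876 and 65.2%. Col1a1, the main fibrillar collagen gene, kept 60.7 and 54.0%. Non-collagen matrix genes gained in 9 of 19 cases and had Pol II in both lists in 73.7%, with Sparc, a collagen-binding protein gene, at 18.7 and 85.8%, Thbs1, a thrombospondin gene, at 61.1 and 54.0% and Eln, the elastin gene, at 0 in both. Eln had a Pol II promoter peak in WT only. Matrix protease and inhibitor genes gained in 14 of 21 cases, with Plau, the urokinase gene, at 0 and 92.2%.

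Adhesion and cytoskeleton genes were mixed. Cadherin and catenin genes gained in 8 of 17 cases, with Jup, the plakoglobin gene, at 0 and 63.2%, Cdh3, the P-cadherin gene, at 0 and 55.3% and Cdh1, the E-cadherin gene, at 0 in both. Integrin and focal adhesion genes gained in 17 of 25 cases, with Pxn, the paxillin gene, at 16.9 and 84.0%. Actin and contractile genes had a median share of 37.5% in WT and 77.9% in KO, and 22 of 29 gained. Cald1, an actin-binding protein gene of 177 kb, had 16.3 and 90.2%, Actb 100% in both, and Myl9, a myosin light chain gene, went from 76.0 to 65.8%. Plexin and semaphorin genes gained in 14 of 25 cases, and Sema3a, with 477 kb the longest of those named, had 0 in both.

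Gene families with restricted expression were mostly without the mark. Of 1128 olfactory receptor genes 1 gained, Olfr56, a record of 156 kb that overlaps another gene. Of 327 vomeronasal receptor genes 0 gained, and of 110 keratin and keratin-associated genes 2 did, Krt7 and Krt10, also named after their values were seen. Gains were found at 13 of 135 voltage-gated ion channel genes, 3 of 43 glutamate and GABA receptor genes, 12 of 100 cytochrome P450 genes and 7 of 60 serpin genes. Solute carrier genes, at 159 of 358 or 44.4%, lay near the percentage of all genes.

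Families of transcription factors and histones had shares with a gain from 27.8% (Sox genes) to 76.1% (Zfp-named genes). Of 39 Hox genes, which lie in clusters, 4 had a WT peak, 26 gained, and 48.7% had Pol II in both lists, with Hoxb4 and Hoxd8 at 0 and 100% and Hoxa11 at 8.04% in WT and 0% in KO. Fox genes gained in 16 of 41 cases, Sox genes in 5 of 18 and Zfp-named zinc finger genes in 293 of 385. Of 67 replication-dependent histone genes, 88.1% had Pol II in both lists, but 6 had a peak in WT and 31 gained (46.3%). Hist2h2be had 0 and 100% and Hist1h1a 0 in both. These genes are far shorter than a typical peak, with a median of 0.539 kb, and many lie next to each other with nearly identical sequence, so reads may be shared between copies. Protocadherin genes gained in 26 of 67 cases, but the clustered ones share exons and overlapping gene bodies.

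All autosomes held genes with a gain. The percentage of genes with a gain ran from 35.6% (32.5 to 38.8) on chromosome 14 to 52.9% (49.8 to 56.0) on chromosome 8. Promoter Pol II in both lists was also lowest on chromosome 14, at 40.2% of genes, and highest on chromosome 8, at 59.9%. Chromosome 7, which holds many olfactory receptor genes, was next to chromosome 14 in both, with 37.8 and 41.3%.

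Set beside mESCs of the same genotypes, the MEF lists differed more between genotypes. Covered length on the autosomes was 4.58 times as large in KO as in WT in MEFs and 2.09 times in mESCs, or 22.6 and 3.61 times with peaks of a -log10 q of at least 3, and 32.7% of genes gained in mESCs. In mESCs the 3′ part held a peak in 62.2% of marked genes in WT and 65.7% in KO, so that WT MEFs had the lowest value of the 4 lists there. The COMPASS and DOT1L genes gained in 7 of 13 cases in mESCs and the cytosolic ribosomal protein genes in 9 of 78. Their median covered share in WT mESCs was 51.8 and 100%. Whether these shares bear on the number of gains was not tested. With 1 library in each group these differences between cell types were not tested.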

How the data were processed

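H2Bub1 chromatin from WT and KO MEFs was analysed as 1 peak list per genotype. The labels describe 16 samples, and the 8 with a peak list form the series used here, with Pol II and mESC lists taken only for comparison. According to the submitters' processing notes, the authors used bcl2fastq 2.17.1.14, Bowtie 1.0.0 and MACS2 2.1.1.20160309, with 50 bp single-end reads aligned to mm10. The control and the calling thresholds are not given in the sources used here, nor how the authors' scaling by intergenic reads entered the calls. The deposited fold enrichment is a linear ratio over a background that is not specified there. The authors also give the -log10 p and -log10 q of each peak, whose lowest -log10 q was 1.00 in WT and 1.01 in KO.

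Positions were made 1-based and set against GENCODE M21 (GRCm38). A gene counted as marked from 1 bp of overlap with its body, and as having promoter Pol II from 1 bp of overlap within 1000 bp of its TSS. The fold of a gene is the mean over its peaks weighted by covered length. Read depth is unknown. No test was run, since there was 1 library per group. The members, the lists and the alternatives were chosen with earlier results of these data known. Gene lists were written by hand or taken from symbols, and marker lists likewise. Genes are named by a rule: the targeted gene, genes the study displayed, the 2 largest gains per length class and the 3 largest falls among genes that overlap no other, the 3 longest with 90% covered in both lists, the 3 KO-only genes with most covered bases, the 3 longest with promoter Pol II and no H2Bub1, and up to 4 per list by gain, smallest change and fall. Some genes that the rule names are not reported here. The lists of neural, muscle, endothelial and pluripotency markers had 1, 2, 1 and 2 genes with a gain, of 15, 14, 15 and 14.

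The alternatives tried were a stricter -log10 q (3 or more), as many KO peaks as WT peaks, joining of peaks less than 1000 bp apart, genes at least 5000 bp from any other, a call at 10% of the gene or part, the longest-span coding transcript (85 genes have none and were left out there) and a threshold of 20 points. An alternative was taken as the same where counts and ratios moved by less than 1.5 times and percentages stayed inside their 95% interval. The scripts were tested on simulated peaks. The work used pandas 2.3.3, scipy 1.17.1, numpy 2.4.6, matplotlib 3.10.9 and, beneath them, Python 3.11.15.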

Additional observations from a re-analysis of the deposited data

How the results depend on the processing

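The number of genes with a gain, 9616, was the same within 1.5 times under 5 of its 6 alternatives. It fell to 3327 of 9757 when kept to genes at least 5000 bp from another gene, where fewer genes were counted. The share with a gain fell too, from 46.2% to 34.1%, and the share with Pol II in both lists from 50.8% to 37.2%. The same restriction left 1521 genes with a peak in KO only and 6 with a loss, and the gain under 5 kb was 11.7% and the KO 3′ part 58.6%. The threshold moved most values. With a -log10 q of at least 3, 1337 of the WT and 11381 of the KO peaks remained, the covered length ratio went from 4.58 to 22.6, genes with a peak in KO only numbered 9092 and genes with a loss 14. The gain was then 27.8% under 5 kb and 26.5% at 200 kb and over, and the 3′ part held a peak in 25.7% of marked genes in WT and 46.0% in KO. With equal numbers of peaks the KO 3′ part was 53.8%, and with a call at 10% covered it was 35.9% in WT and 56.4% in KO. With a gain of 20 points 27.5% of genes under 5 kb and 23.5% of those of 200 kb and over gained. Joining peaks changed nothing, because the smallest gap was 1173 bp in WT and 1193 bp in KO. The mESC ratio of 2.09, tried at the same threshold after seeing the data, was 3.61. Of the 37 values that an alternative altered, 18 moved, and in each alternative the KO list had more covered bases and more genes with a gain than with a loss. No paired analysis was possible because each genotype had 1 library. Depth is unknown, so a WT gene without a peak may carry H2Bub1 that was not detectable.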
